A study of Mus musculus with 15 samples.

Results

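The genes described here are the 5 subunits of the transcription factor NF-kB (Nfkb1, Nfkb2, Rel, Rela and Relb) and 5 genes of its inhibitors and regulators (Nfkbia, Nfkbie, Nfkbiz, Bcl3 and Tnfaip3). They were chosen by name, and these 10 genes of the 55385 in the count table all passed the low-count filter that left 13005 genes for testing. Bone marrow-derived macrophages (BMDMs) of BALB/c mice aged 6 weeks were studied by RNA-seq. STAT5 fl/fl mice (2 mice) carried floxed Stat5 alleles without Cre, and STAT5 cKO mice (3 mice) carried the floxed alleles with Csf1r-iCre. The mice are named by the numbers in the library titles (112 and 113 for STAT5 fl/fl, 114 to 116 for STAT5 cKO). The p-values measure the spread of libraries within groups, pooled over all 6 groups. The main fit held no term for the mouse, although each mouse gave a library to each treatment. For each mouse, BMDMs received DMEM without serum, rmGM-CSF at 20 ng/mL or 4T1 CM for 2 h, which gave 15 libraries in 6 groups. 4T1 CM is a serum-free medium in which 4T1 cells, a line from a mouse mammary tumor, had been grown. The paper reports GM-CSF in the medium of these cells and proposes that it contributes to STAT activation in macrophages. The treatments with rmGM-CSF and 4T1 CM are therefore not unrelated stimuli. The part of GM-CSF in the responses to 4T1 CM was not tested. The floxed alleles were shared by all groups and Cre was carried by the STAT5 cKO mice alone, so that the loss of Stat5 and the presence of the Cre transgene cannot be told apart. Csf1r-iCre is active in the myeloid lineage and not in macrophages alone. A further STAT5 fl/fl replicate had been dropped at quality control before deposition.

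NF-kB is a family of dimers held inactive in the cytoplasm by IkB proteins. Receptors of cytokines and microbial products activate the IKK kinase complex, IkB proteins are degraded, and the freed dimers enter the nucleus, where they switch on inflammatory genes in macrophages. Rela, Rel and Relb encode subunits with a transactivation domain, whereas Nfkb1 and Nfkb2 encode the precursors p105 and p100, which are processed to the subunits p50 and p52. Nfkbia and Nfkbie encode IkBα and IkBε, which retain dimers in the cytoplasm. Nfkbiz and Bcl3 encode nuclear proteins of the IkB family that bind p50 or p52 dimers on DNA, and Tnfaip3 encodes A20, a ubiquitin-editing enzyme that dampens signaling upstream of IKK. Many of these genes are themselves NF-kB targets, which forms feedback loops.

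Short promoter stretches are shown because several of the genes carry sequences of the kind that NF-kB binds. RefSeq windows (GRCm38.p6) were at hand for 7 of the 10 genes, in 10 windows. Nfkb1, Relb and Nfkbiz had none. The κB consensus, a 10-base motif, was searched on both strands in the 250 bases before each start. A match was found in 7 of the 10 windows, belonging to 5 genes, whereas 3.9% of 32851 windows of all genes held one. Of the stretches below, each given 5′ to 3′ on the strand of its gene with the matched bases in capitals, that of Nfkb2 lies at chr19:46304689-46304717 (plus strand), that of Rel at chr11:23771042-23771070 (minus strand), that of Nfkbia at chr12:55492658-55492685 (minus strand) and that of Nfkbie at chr17:45555585-45555612 (plus strand). Those of Tnfaip3 lie at chr10:19015517-19015544 and chr10:19015411-19015431 (minus strand).
Nfkb2: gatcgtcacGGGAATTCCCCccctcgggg
Rel: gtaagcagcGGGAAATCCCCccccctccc
Nfkbia: gactggcttGGAAATTCCCcgcgcctga
Nfkbie: cagcaaacaGGGGGATTCCggaggggcg
Tnfaip3, distal: actcacgcgGGGACACCCCggggcggga
Tnfaip3, proximal: atttccatcGGAAATCCCCct

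The 11 capital letters of Nfkb2 and of Rel each hold overlapping matches of the same motif. Nfkb2 had further matches that are not printed, at -11 to -2 of start 1, -236 to -227 of start 2 and -225 to -216 of start 3. In the GENCODE annotation the stretches of Rel, Nfkbia and Nfkbie lie outside any transcript, and those of Tnfaip3 lie in an intron of a longer transcript of that gene. The stretch of Nfkb2 lies in the 5′ UTR of a longer Nfkb2 transcript and also in an exon of an antisense long non-coding RNA. Counting used the strand, so that reads of both could be told apart. Rela and Bcl3 had no match in their windows. The STAT motif TTCNNNGAA, the same on both strands and overlapping no κB match, occurred in a single window, that of the first start of Nfkb2, at -148 to -140, whereas 7.02% of all windows held it. A match is a description of these letters and shows no binding.

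**Figure D1:**
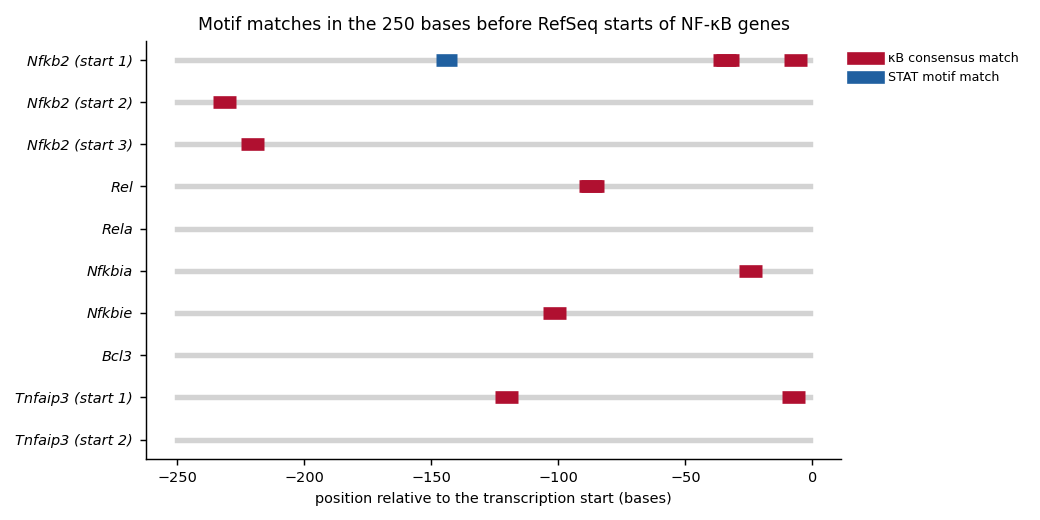
Positions of κB consensus matches (red) and STAT motif matches (blue) in the 250 bases before each RefSeq start (x axis, bases from the start) of the 7 genes with a window. Matches were seen for Nfkb2, Rel, Nfkbia, Nfkbie and the first start of Tnfaip3, whereas Rela, Bcl3 and the second start of Tnfaip3 had none.

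Library totals ranged from 16016736 to 22883108 counts, and a floor of 3 counts corresponded to between 0.131 and 0.187 CPM. Stat5a lay between 29 and 45 CPM and Stat5b between 60.8 and 77.7 CPM in the STAT5 fl/fl libraries. In the STAT5 cKO libraries Stat5a did not exceed 0.142 CPM and Stat5b did not exceed 0.189 CPM, so that all libraries matched their labels. All 10 macrophage markers were detected in every group. Their summed level was 25136 to 30489 CPM in STAT5 fl/fl and 31561 to 47057 CPM in STAT5 cKO libraries, with no overlap. Between the genotypes, 2 of the 10 markers were called higher and 1 lower in STAT5 cKO BMDMs when cells were in DMEM or 4T1 CM, and 1 higher and 1 lower in rmGM-CSF. Lyz2 was 1.54-fold higher in STAT5 cKO BMDMs with DMEM (edgeR adjusted p = 0.00531), whereas Csf1r differed by -0.03 on the log2 scale (adjusted p = 0.858). Mrc1, the mannose receptor of alternatively activated macrophages, was lower in STAT5 cKO BMDMs (0.428-fold with DMEM, adjusted p = 0.00175). Of the 5 mast cell and basophil markers, Kit was 0.357-fold in STAT5 cKO BMDMs with DMEM (adjusted p = 0.00166), but it made up nearly the whole of their sum (1.65 to 23.8 CPM). Cpa3, Mcpt8 and Fcer1a of that list had at most 2 counts in any library, and Gata2 at most 11. The sum of the 7 stromal and endothelial markers was 124 to 134 CPM in STAT5 fl/fl and 69.8 to 76.9 CPM in STAT5 cKO libraries with DMEM, where Kdr was 0.517-fold (adjusted p = 5.87e-05). Only 2 of these markers were tested. The other, Pdgfrb, went the opposite way with DMEM without passing the threshold (1.43-fold, adjusted p = 0.0438). With rmGM-CSF that sum was 57.7 to 67.9 and 64.4 to 76.4 CPM, and with 4T1 CM 103.2 to 116 and 78.5 to 103.1 CPM. The 5 epithelial markers summed to at most 4.33 CPM, but Cdh1 moved with treatment and genotype. It had no counts in STAT5 fl/fl libraries with DMEM, 21 in each with rmGM-CSF and 63 and 84 with 4T1 CM. In STAT5 cKO libraries it had at most 1 count with DMEM or rmGM-CSF and 24, 25 and 47 with 4T1 CM. Zbtb46, 1 of 6 dendritic cell markers, rose with rmGM-CSF (5.08-fold in STAT5 fl/fl, adjusted p = 0.000416, and 3.64-fold in STAT5 cKO BMDMs, adjusted p = 0.000375), with a list sum of at most 4.86 CPM. Summed neutrophil, T cell, B cell and erythroid markers did not exceed 2.5 CPM in any library. The part of these marker differences in the results below was not tested.

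The STAT5 cKO library of mouse 115 with 4T1 CM stood apart from its group. Its chi-square per gene against the other libraries of the group was 16.9 and 23.2, whereas all other pairs of replicates lay between 4.42 and 14.5. Ccl5 had 2632 counts in it against 79 and 114 in the other libraries of the group, and Adgre1, the macrophage marker F4/80, had 37258 against 21393 and 21976. Results that use this library are therefore also given without mouse 115 (all its libraries left out) where the call changed. In bulk RNA, fewer cells of a type and less RNA per cell cannot be told apart.

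In STAT5 fl/fl BMDMs kept in DMEM, all 10 genes were expressed. Levels between genes are compared here as normalized CPM per kb of summed exon length. That length covers all annotated exons of a gene (12061 bases for Nfkb1 and 1610 for Nfkbia), and the order of the genes depends on it. Before this division Nfkb1 was the highest of the 10 genes in these libraries (mean of 183 CPM, against 128 for Rela and 81.5 for Nfkbia). Nfkbia was highest at 50.6 ± 3.25 CPM per kb (SD, n = 2), followed by Rela at 41.6 ± 1.51. Nfkb2, Nfkb1, Rel, Relb and Nfkbie followed in that order from 17.1 to 9.16 CPM per kb, without overlap between neighbours. The lowest levels were those of Nfkbiz (7.16), Bcl3 (6.63) and Tnfaip3 (6.37), whose library values overlapped between neighbours in that order. The order of the means was the same in STAT5 cKO BMDMs with DMEM, from Nfkbia at 60.4 to Tnfaip3 at 5.66 CPM per kb. With rmGM-CSF the order changed. Nfkbia stayed first at 342 CPM per kb in STAT5 fl/fl BMDMs, Nfkbie moved to second place at 94.0, and Nfkb1 and Relb were last at 40.1 and 39.8, without a difference beyond their spread. With 4T1 CM, Nfkbia was again first in both genotypes (105 and 99.5 CPM per kb in STAT5 fl/fl and STAT5 cKO), and Nfkbiz was last (6.87 and 10.1).

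**Figure D2:**
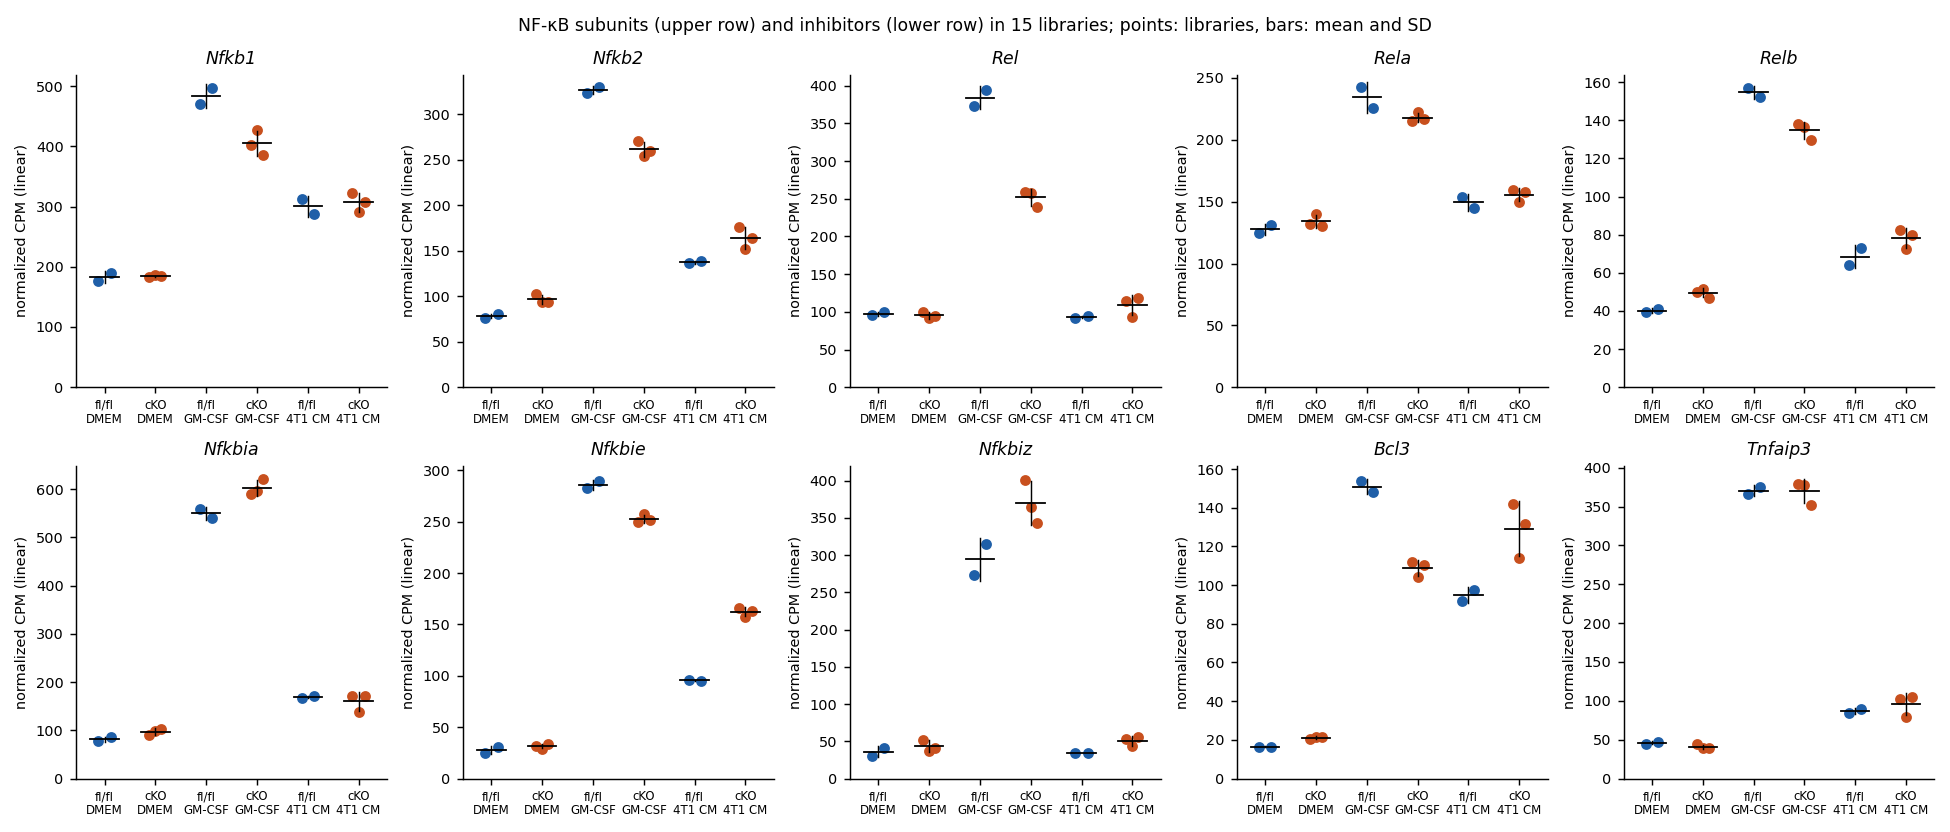
Normalized CPM (y axis, linear from 0) of the 10 genes in each library (points), by genotype and treatment (x axis, STAT5 fl/fl blue and STAT5 cKO orange), with the mean and SD as black lines. In STAT5 fl/fl BMDMs all 10 genes were highest with rmGM-CSF, and Rel and Nfkbiz lay near their DMEM level with 4T1 CM.

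Treatment with rmGM-CSF raised all 10 genes in both genotypes. In each genotype 10 of 10 genes were called higher against DMEM at an adjusted p under 0.01, where 15.9% of all tested genes were called higher in STAT5 fl/fl and 13.3% in STAT5 cKO BMDMs. Among the subunits, Rela rose least. It was measured at 124 and 131 CPM with DMEM and at 243 and 226 CPM with rmGM-CSF in STAT5 fl/fl mice 112 and 113, a 1.83-fold rise (log2 fold change 0.88 ± 0.065 SE, edgeR adjusted p = 8.41e-09). In STAT5 cKO mice 114, 115 and 116 Rela rose from 132, 139.8 and 130.5 CPM to 215, 222 and 216 CPM (1.63-fold, adjusted p = 1.47e-08). No library with rmGM-CSF overlapped a library with DMEM. The other 4 subunits rose between 2.65-fold (Nfkb1) and 4.18-fold (Nfkb2) in STAT5 fl/fl BMDMs, and between 2.20-fold (Nfkb1) and 2.72-fold (Relb) in STAT5 cKO BMDMs.

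The 5 genes of inhibitors and regulators, a class that includes Nfkbiz and Bcl3, rose more than the subunit genes. The class medians were 3.03 against 1.94 on the log2 scale in STAT5 fl/fl BMDMs and 3.0 against 1.40 in STAT5 cKO BMDMs. The median over all tested genes was -0.01 and -0.00347. Nfkbia was measured at 77.8 and 85.2 CPM with DMEM and at 559.5 and 541 CPM with rmGM-CSF in STAT5 fl/fl BMDMs (6.75-fold, log2 fold change 2.75 ± 0.098 SE, adjusted p = 6.04e-13). In STAT5 cKO BMDMs its levels were 89.8, 99 and 103 CPM with DMEM and 589.6, 597 and 621 CPM with rmGM-CSF (6.19-fold, adjusted p = 7.46e-14). Both treatments were thus well separated in each genotype. Tnfaip3 rose 8.04-fold in STAT5 fl/fl BMDMs (44.6 and 47.6 to 366 and 375 CPM) and 9.05-fold in STAT5 cKO BMDMs (43.9, 39.4 and 39.5 to 379, 378 and 352 CPM). Nfkbiz rose 8.18-fold in STAT5 fl/fl BMDMs (30.5 and 41.3 to 274 and 315 CPM) and 8.47-fold in STAT5 cKO BMDMs (52.1, 37.5 and 41.4 to 401, 364 and 343 CPM). Nfkbie, at 25.1 and 30.7 CPM with DMEM in STAT5 fl/fl BMDMs, reached 283 and 289.6 CPM with rmGM-CSF, a 10.2-fold rise and the largest of the 10 genes in that genotype (adjusted p = 1.57e-14). In STAT5 cKO BMDMs Nfkbie went from 32, 29.2 and 33.5 CPM to 249.6, 257 and 252 CPM (8.02-fold, adjusted p = 3.14e-15). The rise of Nfkbia, Tnfaip3 and Nfkbiz did not differ between the genotypes at the threshold (interaction log2 values -0.12 ± 0.12 for Nfkbia, 0.17 ± 0.13 for Tnfaip3 and 0.05 ± 0.19 SE for Nfkbiz, adjusted p of at least 0.674).

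Stimulation with 4T1 CM raised fewer of the genes and raised most of them less. In each genotype 8 of 10 genes were called higher against DMEM, where 19.2% of all tested genes were called higher in STAT5 fl/fl and 19.3% in STAT5 cKO BMDMs. The exceptions were Rel and Nfkbiz. Rel was measured at 92.2 and 94.2 CPM with 4T1 CM against 95.7 and 99.5 CPM with DMEM in STAT5 fl/fl BMDMs (log2 fold change -0.07 ± 0.091 SE, adjusted p = 0.574). In STAT5 cKO BMDMs Rel lay at 115, 93.4 and 119 CPM against 100.3, 91.6 and 94.3 CPM (0.19 ± 0.074 SE, adjusted p = 0.0411), and without mouse 115, whose 4T1 CM library was lowest, the log2 fold change of 0.26 passed the threshold (adjusted p = 0.00736). Nfkbiz with 4T1 CM was within its DMEM spread in STAT5 fl/fl BMDMs, at 34.2 and 34.7 CPM, and reached 53.1, 43.4 and 55.9 CPM in STAT5 cKO BMDMs, where the ranges also overlapped (adjusted p = 0.771 and 0.159).

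Bcl3 and Nfkbie rose most with 4T1 CM. Bcl3 went from 16.6 and 16.3 CPM to 91.8 and 97.6 CPM in STAT5 fl/fl BMDMs, a 5.77-fold rise (log2 fold change 2.53 ± 0.095 SE, adjusted p = 9.07e-13). In STAT5 cKO BMDMs it went from 20.4, 21.4 and 21.6 CPM to 142, 114 and 132 CPM, a 6.10-fold rise (2.61 ± 0.075, adjusted p = 1.91e-14). Nfkbie rose 3.42-fold in STAT5 fl/fl BMDMs (25.1 and 30.7 to 96.1 and 95.1 CPM) and 5.14-fold in STAT5 cKO BMDMs (32, 29.2 and 33.5 to 167, 158 and 163 CPM). For both genes every library with 4T1 CM lay above every library with DMEM. Nfkbia, Tnfaip3, Nfkb1, Nfkb2 and Relb rose between 1.58-fold and 2.34-fold in either genotype. Rela rose least, by 1.17-fold in STAT5 fl/fl BMDMs (adjusted p = 0.00815) and 1.16-fold in STAT5 cKO BMDMs (adjusted p = 0.00264). The call of Rela in STAT5 fl/fl BMDMs was lost with the mouse as a block (adjusted p = 0.0111) and in 7 other alternatives, among them the exclusion of any 1 mouse, and that in STAT5 cKO BMDMs was lost without mouse 114 or 116 (adjusted p = 0.044 and 0.0472).

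**Figure D3:**
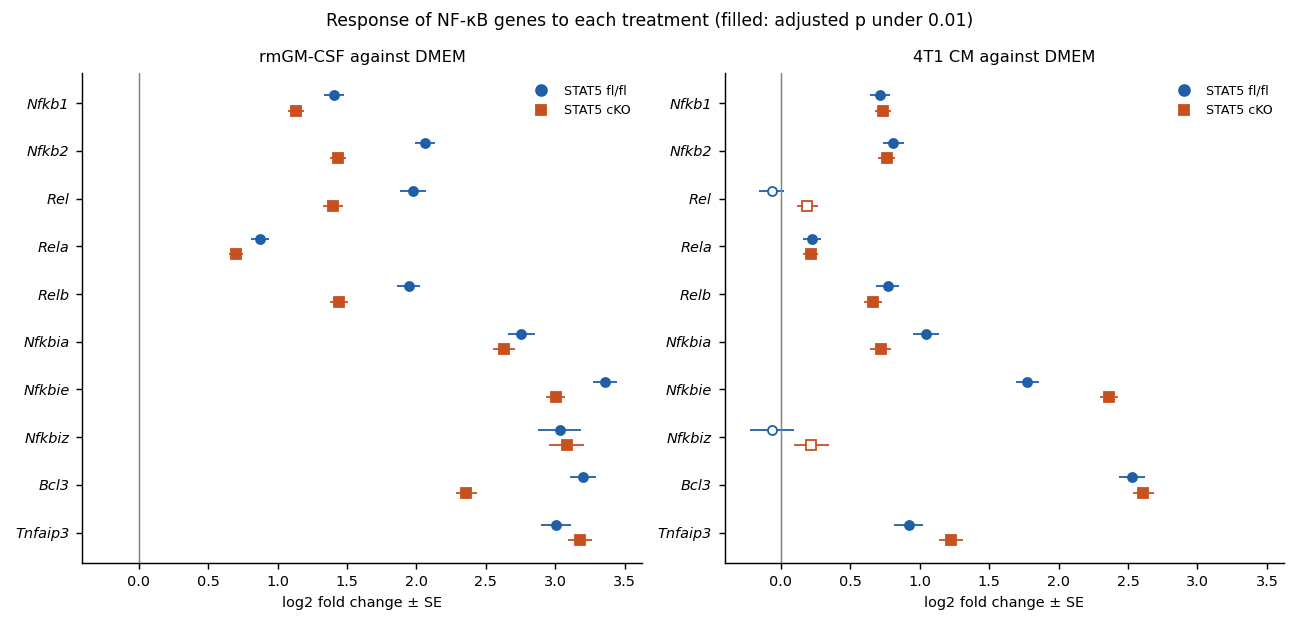
Log2 fold change with its SE (x axis) of each gene (y axis) for rmGM-CSF against DMEM (left) and 4T1 CM against DMEM (right), in STAT5 fl/fl (blue circles) and STAT5 cKO BMDMs (orange squares). Filled symbols passed an adjusted p under 0.01, which all genes did with rmGM-CSF and all but Rel and Nfkbiz did with 4T1 CM.

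When the treatments were set against each other, levels with 4T1 CM were lower than with rmGM-CSF for all 10 genes in STAT5 fl/fl BMDMs, where 16.7% of all tested genes were called lower. The log2 fold changes lay between -0.65 for Rela and -3.09 for Nfkbiz. In STAT5 cKO BMDMs 9 of 10 genes were called lower, where 17.5% of all tested genes were, and Bcl3 was called higher, where 16.6% of all tested genes were (1.19-fold, log2 fold change 0.25 ± 0.068 SE, adjusted p = 0.00625). In these STAT5 cKO libraries Bcl3 lay at 112, 104 and 110.3 CPM with rmGM-CSF and at 142, 114 and 132 CPM with 4T1 CM. The groups did not overlap, though mouse 115 with 4T1 CM came close to the range with rmGM-CSF. This call was lost in 6 of 15 alternatives, among them the exclusion of mouse 112, 113, 114 or 116 (adjusted p between 0.0141 and 0.0555).

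Between the genotypes, 4 of 10 genes differed with rmGM-CSF, each of them lower in STAT5 cKO BMDMs, where 6.24% of all tested genes were called lower and 3.57% higher. The largest difference was that of Rel, which encodes the subunit c-Rel. Rel was measured at 373 and 395 CPM in STAT5 fl/fl and at 259, 257 and 239 CPM in STAT5 cKO BMDMs. All STAT5 cKO libraries lay below both STAT5 fl/fl libraries, and the fitted ratio was 0.656 (log2 fold change -0.61 ± 0.079 SE, edgeR adjusted p = 3.02e-05). With DMEM the levels of Rel overlapped (95.7 and 99.5 against 100.3, 91.6 and 94.3 CPM). The response of Rel to rmGM-CSF was therefore smaller in STAT5 cKO BMDMs, 2.64-fold against 3.94-fold (interaction log2 value -0.58 ± 0.12 SE, adjusted p = 0.00479). The interaction of Rel was lost without mouse 112, 113, 114 or 116 (adjusted p = 0.0724, 0.109, 0.0216 and 0.0189), with log2 values between -0.55 and -0.59.

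With rmGM-CSF, Bcl3 was also lower in STAT5 cKO BMDMs. It lay at 154 and 148 CPM in STAT5 fl/fl and at 112, 104 and 110.3 CPM in STAT5 cKO BMDMs, without overlap (0.721-fold, log2 fold change -0.47 ± 0.075 SE, adjusted p = 0.000228). Without mouse 112 the adjusted p was 0.0109. With DMEM the order of the genotypes was the opposite, as both STAT5 fl/fl libraries (16.6 and 16.3 CPM) lay below the STAT5 cKO libraries (20.4, 21.4 and 21.6 CPM), a difference that did not pass the threshold (adjusted p = 0.025). The response of Bcl3 to rmGM-CSF was 9.19-fold in STAT5 fl/fl and 5.14-fold in STAT5 cKO BMDMs. This difference between the genotypes had the largest interaction of the 10 genes with rmGM-CSF (-0.84 ± 0.12 SE, adjusted p = 0.000243). It was lost without mouse 112 or 113 (adjusted p = 0.0129 and 0.0131).

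Nfkb2, which encodes p100, lay at 324 and 329.9 CPM in STAT5 fl/fl and at 271, 255 and 259 CPM in STAT5 cKO BMDMs with rmGM-CSF (0.801-fold, log2 fold change -0.32 ± 0.064 SE, adjusted p = 0.00188). The groups did not overlap. The call was lost without mouse 112, 113 or 116 (adjusted p = 0.0234, 0.0475 and 0.0138). With DMEM, Nfkb2 lay at 76.5 and 80.1 CPM in STAT5 fl/fl and at 103, 93.9 and 94 CPM in STAT5 cKO BMDMs, again without overlap and in the opposite direction (adjusted p = 0.0118). The response to rmGM-CSF was 4.18-fold in STAT5 fl/fl and 2.70-fold in STAT5 cKO BMDMs (interaction -0.63 ± 0.093 SE, adjusted p = 0.00038, lost without mouse 112 or 113, adjusted p = 0.019 and 0.0167). Relb, the partner of p52 in the noncanonical pathway, behaved in a similar way. It lay at 157 and 152 CPM in STAT5 fl/fl and at 138, 136 and 129.7 CPM in STAT5 cKO BMDMs with rmGM-CSF (adjusted p = 0.0592), and at 39.3 and 41 against 49.8, 51.6 and 47 CPM with DMEM (adjusted p = 0.0229). Neither genotype comparison of Relb passed the threshold, although the libraries did not overlap in either. The responses of 3.85-fold and 2.72-fold differed (interaction -0.50 ± 0.10 SE, adjusted p = 0.00535), a call lost in 6 of 15 alternatives, among them the exclusion of any 1 mouse (adjusted p between 0.0199 and 0.0898). In all, 4 of 10 genes had a smaller response to rmGM-CSF in STAT5 cKO BMDMs, where 2.22% of all tested genes were called so and 0.884% in the opposite direction.

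Nfkb1, which encodes p105, lay at 469.7 and 497 CPM in STAT5 fl/fl and at 402, 427 and 386 CPM in STAT5 cKO BMDMs with rmGM-CSF (0.838-fold, log2 fold change -0.25 ± 0.064 SE). Its adjusted p of 0.00989 lay just under the threshold, and the call was lost in 11 of 15 alternatives, with adjusted p up to 0.133. No library of one genotype overlapped the other. Of the genes not called with rmGM-CSF, Nfkbie lay at 283 and 289.6 CPM in STAT5 fl/fl and at 249.6, 257 and 252 CPM in STAT5 cKO BMDMs (log2 fold change -0.18 ± 0.068 SE, adjusted p = 0.0897). Nfkbia, Rela and Nfkbiz differed by 0.13, -0.10 and 0.33 on the log2 scale (adjusted p = 0.316, 0.263 and 0.0949). Tnfaip3 differed by -0.0024 ± 0.088 SE (adjusted p = 0.991), and its libraries overlapped. The libraries of the genotypes did not overlap in 9 of 10 genes with rmGM-CSF, where they did not overlap in 49% of all tested genes.

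With 4T1 CM, 2 of 10 genes differed between the genotypes, and both were higher in STAT5 cKO BMDMs, where 4.13% of all tested genes were called higher and 3.57% lower. Nfkbie, which encodes IkBε, lay at 96.1 and 95.1 CPM in STAT5 fl/fl and at 167, 158 and 163 CPM in STAT5 cKO BMDMs. The STAT5 cKO libraries lay close together and far above the others (1.70-fold, log2 fold change 0.76 ± 0.072 SE, adjusted p = 2.12e-06). This call was kept in all 15 alternatives, with a log2 fold change of 0.78 without mouse 115 (adjusted p = 1.58e-05). The response of Nfkbie to 4T1 CM, given above, differed between the genotypes (interaction 0.59 ± 0.11 SE, adjusted p = 0.00467), where 0.73% of all tested genes were called in this direction. That interaction was lost without mouse 113, 114, 115 or 116 (adjusted p = 0.184, 0.0283, 0.0243 and 0.0144) and fell to 0.42 on the log2 scale without mouse 113. In mouse 112, which then remained, Nfkbie with DMEM was 25.1 CPM, below the 30.7 CPM of mouse 113.

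Bcl3 with 4T1 CM lay at 91.8 and 97.6 CPM in STAT5 fl/fl and at 142, 114 and 132 CPM in STAT5 cKO BMDMs (1.36-fold, log2 fold change 0.45 ± 0.077 SE, adjusted p = 0.000714). The libraries did not overlap. The call was lost without mouse 112 or 113 (adjusted p = 0.0274 and 0.016) and in a fit of the libraries compared alone (adjusted p = 0.0301), and kept without mouse 115 (log2 fold change 0.53, adjusted p = 0.000163). The response of Bcl3 to 4T1 CM gave an interaction of 0.08 ± 0.12 SE (adjusted p = 0.842). Nfkb2 (136 and 138 against 176, 152 and 165 CPM, adjusted p = 0.0142) and Nfkbiz (34.2 and 34.7 against 53.1, 43.4 and 55.9 CPM, adjusted p = 0.0147) did not overlap between the genotypes and missed the threshold. Without mouse 115, whose 4T1 CM library was the lowest of the STAT5 cKO libraries for both, they passed it (adjusted p = 0.00855 and 0.00584), as did Rel (adjusted p = 0.00719). The libraries did not overlap in 4 of 10 genes, where they did not overlap in 39.3% of all tested genes.

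With DMEM, 0 of 10 genes were called between the genotypes with the edgeR quasi-likelihood test, where 2.49% of all tested genes were. An unadjusted p under 0.05 was found for 5 genes, where 21.7% of all tested genes had one, and 3 genes (Nfkb2, Relb and Bcl3) were called by DESeq2 and by the likelihood ratio test of edgeR. The log2 differences ranged from -0.17 (Tnfaip3) to 0.37 (Bcl3). The libraries did not overlap in 5 of 10 genes, where they did not overlap in 39.9% of all tested genes.

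**Figure D4:**
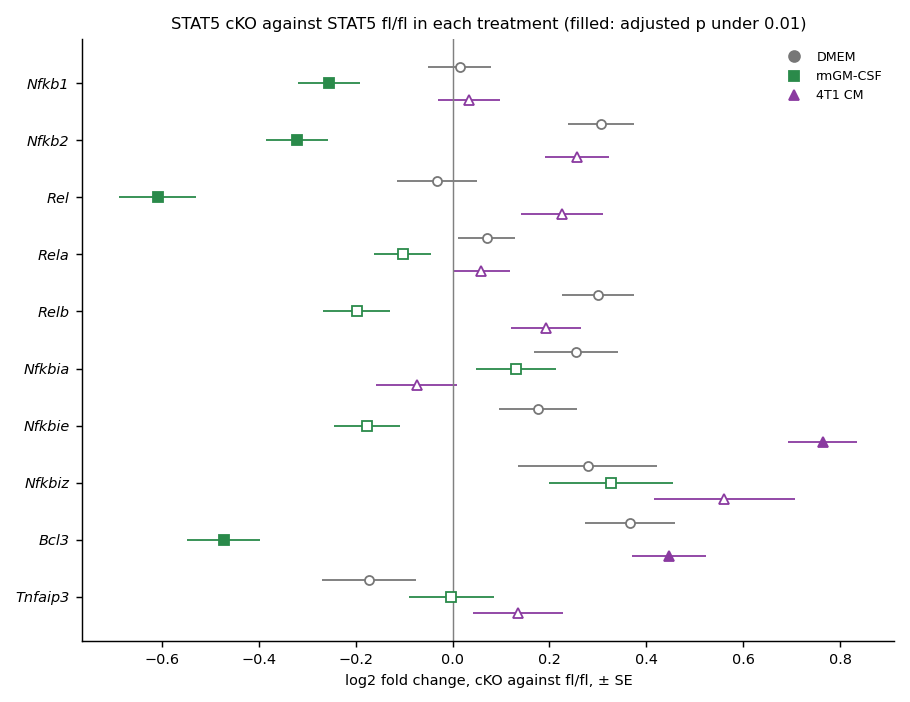
Log2 fold change of STAT5 cKO against STAT5 fl/fl BMDMs with its SE (x axis) for each gene (y axis), with DMEM (grey circles), rmGM-CSF (green squares) and 4T1 CM (purple triangles). Filled symbols passed an adjusted p under 0.01, which were Nfkb1, Nfkb2, Rel and Bcl3 with rmGM-CSF, to the left of 0, and Nfkbie and Bcl3 with 4T1 CM, to the right of 0.

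The genotype effects with 4T1 CM and with rmGM-CSF were then compared with each other. They differed for 4 of 10 genes, each with the higher value under 4T1 CM, where 1.32% of all tested genes were called in this direction and 0.146% in the other. These were Nfkbie (difference of 0.94 ± 0.099 SE on the log2 scale, adjusted p = 1.68e-05), Bcl3 (0.92 ± 0.11, adjusted p = 5.37e-05), Rel (0.83 ± 0.12, adjusted p = 0.000288) and Nfkb2 (0.58 ± 0.092, adjusted p = 0.00117). For Bcl3 the genotypes were called in opposite directions under the treatments. The calls of Rel and Nfkb2 were lost without mouse 112 or 113 (adjusted p between 0.0157 and 0.0488), and that of Nfkb2 also without mouse 116 (adjusted p = 0.0125). This comparison shares its libraries with the comparisons within each treatment.

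The levels of each class were also summed per library, as normalized CPM per kb, so that the sums and their ratio depend on the annotated exon lengths as well. The 5 subunits summed to 94.7 and 99.7 with DMEM and to 279 in either library with rmGM-CSF in STAT5 fl/fl BMDMs. In STAT5 cKO BMDMs their sum was 103 to 107 with DMEM and 225 to 233 with rmGM-CSF. The subunit sum with rmGM-CSF was therefore lower in each STAT5 cKO library. The 5 genes of inhibitors and regulators summed to 606 and 608 in STAT5 fl/fl and to 623 to 630.3 in STAT5 cKO BMDMs with rmGM-CSF. Nfkbia made up 55.5 to 61.2% of that sum. This class includes Nfkbiz and Bcl3, whose nuclear proteins bind p50 or p52 dimers on DNA, so that its sum is no measure of inhibition. The ratio of its sum to the subunit sum was 0.798 to 0.946 with DMEM, 1.42 to 1.6 with 4T1 CM and 2.17 to 2.81 with rmGM-CSF over both genotypes. With rmGM-CSF the ratio was 2.17 and 2.18 in STAT5 fl/fl and 2.67 to 2.81 in STAT5 cKO BMDMs. With 4T1 CM it was 1.417 and 1.478 against 1.482 to 1.599, and with DMEM 0.798 and 0.847 against 0.852 to 0.946. Each STAT5 cKO library thus lay above both STAT5 fl/fl libraries in every treatment, though narrowly with 4T1 CM and DMEM. The level of Rel relative to Rela was 0.313 and 0.316 with DMEM and 0.632 and 0.721 with rmGM-CSF in STAT5 fl/fl BMDMs, and 0.455 to 0.496 in STAT5 cKO BMDMs with rmGM-CSF. These sums and ratios are descriptions of transcript levels, and no test was made on them.

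**Figure D5:**
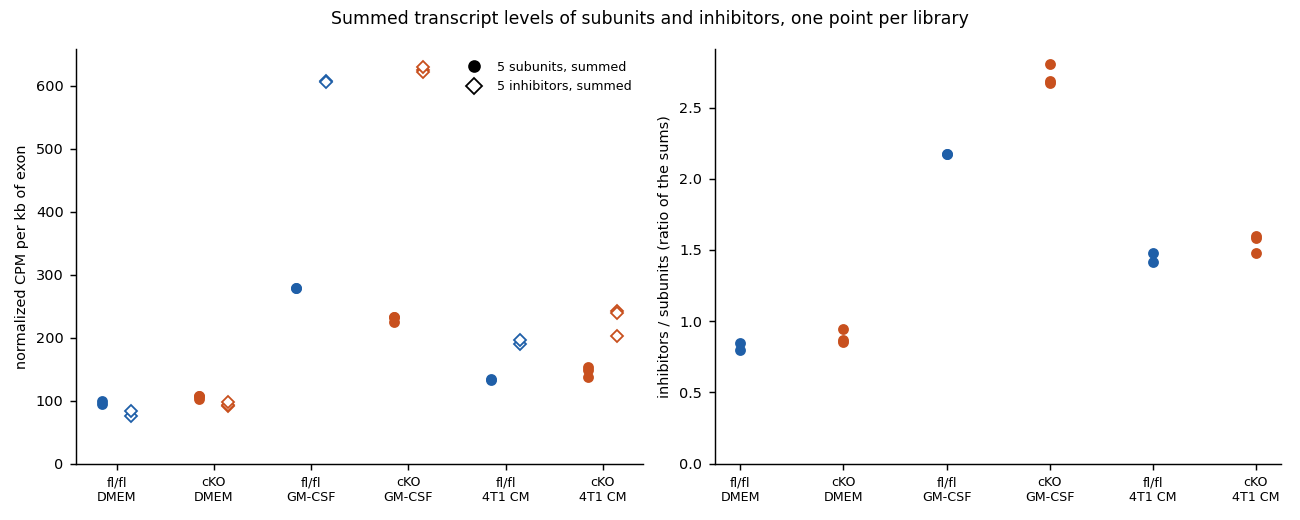
Left, summed level of the 5 subunit genes (filled circles) and the 5 genes of inhibitors and regulators (open diamonds, labelled inhibitors) per library (y axis, normalized CPM per kb of exon). Right, ratio of the sums (y axis), by genotype and treatment (x axis, STAT5 fl/fl blue and STAT5 cKO orange). The ratio was lowest with DMEM, at 0.798 to 0.946, and highest with rmGM-CSF, at 2.17 to 2.81.

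Genes that act around the 10 described genes were followed as 7 lists with 103 genes. The shares of all tested genes given with each comparison apply to the counts of these lists as well. In the list of other IkB proteins and related genes (Nfkbib, Nfkbid, Ankrd42, Nkiras1 and Nkiras2), not all genes encode IkB proteins. Nfkbid, which encodes a nuclear IkB protein, rose with rmGM-CSF 2.53-fold in STAT5 fl/fl and 2.18-fold in STAT5 cKO BMDMs (adjusted p = 5.92e-08 and 4.25e-08). Nfkbib, which encodes IkBβ, rose 2.19-fold and 2.06-fold (adjusted p = 1.61e-07 and 4.16e-08). In the list of the IKK complex and its kinases (10 genes), 6 rose and 2 fell with rmGM-CSF in STAT5 fl/fl BMDMs, where 12.6% of all tested genes fell. Ikbke, which encodes IKKε, rose 3.07-fold (adjusted p = 5.43e-10), whereas Ikbkg, which encodes the scaffold NEMO, fell to 0.779-fold (adjusted p = 0.000339). Between the genotypes with rmGM-CSF, Ikbkg was higher in STAT5 cKO BMDMs (1.24-fold, adjusted p = 0.00171) and Map3k8, which encodes the kinase TPL2, was lower (0.707-fold, adjusted p = 0.000856).

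Of the 9 genes of the noncanonical arm, 7 rose and 1 fell with rmGM-CSF in STAT5 fl/fl BMDMs. The one that fell was Map3k14, which encodes NIK (0.698-fold, adjusted p = 0.00123). With 4T1 CM, Map3k14 rose 3.89-fold in STAT5 fl/fl and 4.15-fold in STAT5 cKO BMDMs (adjusted p = 5.24e-11 and 9.31e-13). Cd40, a receptor that signals through NIK, rose 13.9-fold with rmGM-CSF and 4.51-fold with 4T1 CM in STAT5 fl/fl BMDMs (adjusted p = 2.03e-10 and 9.76e-07). With rmGM-CSF, Cd40 was lower in STAT5 cKO BMDMs (0.621-fold, adjusted p = 0.00267), while Tnfrsf1b, Tnfrsf11a and Map3k14 were higher (1.45-fold to 1.52-fold).

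Of the 19 receptors and adaptors, 10 rose and 1 fell with rmGM-CSF in STAT5 fl/fl BMDMs. Malt1, the paracaspase of the CARD-BCL10-MALT1 complex, rose 6.91-fold (adjusted p = 2.98e-11). Between the genotypes with rmGM-CSF, 2 were higher and 3 lower in STAT5 cKO BMDMs. The lower ones were Malt1 (0.411-fold, adjusted p = 3.09e-07), Traf6, the ubiquitin ligase of Toll-like and IL-1 receptor signaling (0.527-fold, adjusted p = 1.77e-08), and Tlr4, the receptor of lipopolysaccharide (0.716-fold, adjusted p = 0.000837). The same 3 genes had a smaller response to rmGM-CSF in STAT5 cKO BMDMs (interactions of -1.07, -0.91 and -0.61 on the log2 scale, adjusted p = 0.000547, 8.64e-06 and 0.00625). With 4T1 CM, Traf6 and Tlr4 were lower in STAT5 cKO BMDMs as well (0.671-fold and 0.683-fold, adjusted p = 1.78e-05 and 0.000375). Their interactions for 4T1 CM against DMEM were -0.56 and -0.67 (adjusted p = 0.00286 and 0.00568), whereas Malt1 was called in neither (adjusted p = 0.726 and 0.801). The IL-1 receptor gene Il1r1 was higher in STAT5 cKO BMDMs with rmGM-CSF (3.29-fold, adjusted p = 0.000113) and with 4T1 CM (1.67-fold, adjusted p = 0.000858).

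Among the 13 partners of A20 and deubiquitinases, Tnip3, an A20-binding protein, was higher in STAT5 cKO BMDMs with each treatment, by log2 differences of 0.59 (DMEM), 0.39 (rmGM-CSF) and 0.78 (4T1 CM) (adjusted p = 0.00185, 0.00704 and 2.52e-05). It rose 5.77-fold with rmGM-CSF in STAT5 fl/fl BMDMs (adjusted p = 5.97e-12). In the list of nuclear partners and brakes (14 genes), Zc3h12a, which encodes the RNase Regnase-1, rose 4.33-fold with rmGM-CSF and 3.89-fold with 4T1 CM in STAT5 fl/fl BMDMs (adjusted p = 1.76e-13 and 3.19e-13). STAT5 cKO BMDMs held less of the coactivator transcript Ncoa3 than STAT5 fl/fl BMDMs, with rmGM-CSF (0.631-fold, adjusted p = 3.95e-07) and with 4T1 CM (0.798-fold, adjusted p = 0.00143).

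Of 33 listed NF-kB target genes 28 were tested. With rmGM-CSF 25 rose in STAT5 fl/fl and 27 in STAT5 cKO BMDMs, with medians of 3.49 and 2.38 on the log2 scale. Cxcl2, a chemokine for neutrophils, rose 72.5-fold in STAT5 fl/fl and 58.2-fold in STAT5 cKO BMDMs, and Tnf rose 38.9-fold and 30.2-fold. With 4T1 CM 19 rose and 3 fell in STAT5 fl/fl BMDMs, where 18.2% of all tested genes fell. The fall was seen for Ccl3, a chemokine gene (0.256-fold), Irf1 (0.531-fold) and Tnfaip2 (0.746-fold). Of the inflammatory genes that rose with 4T1 CM, Il1b rose 79.1-fold in STAT5 fl/fl BMDMs (adjusted p = 1.65e-12). Ptgs2, which encodes cyclooxygenase-2, rose 41.3-fold with rmGM-CSF in STAT5 fl/fl BMDMs (adjusted p = 2.37e-14).

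Between the genotypes with rmGM-CSF, 12 of the 28 target genes were lower and 3 higher in STAT5 cKO BMDMs, with a median of -0.34 against 0.000475 over all tested genes. Of all tested genes, 6.24% were called lower and 3.57% higher. Ccl2, a chemokine for monocytes, was lower by far (0.0726-fold, log2 fold change -3.78 ± 0.18 SE, adjusted p = 9.64e-11), followed by Ier3 (0.281-fold, adjusted p = 1.19e-09) and Cxcl10 (0.281-fold, adjusted p = 1.76e-08). Clec4e, Tnfsf9 and Cxcl1 were higher (1.76-fold, 1.52-fold and 1.53-fold). The target genes thus differed in both directions. With 4T1 CM 4 were higher and 6 lower, where 4.13% of all tested genes were called higher and 3.57% lower. Among the higher were Ptgs2 (2.01-fold, adjusted p = 1.84e-06) and Traf1 (1.89-fold, adjusted p = 7.38e-06), and among the lower was Ccl2 (0.298-fold, adjusted p = 3.08e-06). With rmGM-CSF, Ptgs2 was lower in STAT5 cKO BMDMs (0.593-fold, adjusted p = 5.25e-06). Its genotype effects differed between 4T1 CM and rmGM-CSF (1.76 on the log2 scale, adjusted p = 2.76e-07). Of the target genes named here, Clec4e and Traf1 were already higher in STAT5 cKO BMDMs with DMEM (2.45-fold and 1.599-fold, adjusted p = 1.52e-05 and 0.000904). The interaction was not called for Clec4e with rmGM-CSF (-0.47, adjusted p = 0.147) or Traf1 with 4T1 CM (0.24, adjusted p = 0.473). The other target genes named in this paragraph were not called between the genotypes with DMEM (adjusted p of at least 0.419). Tnf, named above, was not called either, but came closer to the threshold (1.43-fold in STAT5 cKO BMDMs with DMEM, adjusted p = 0.0362). The response to rmGM-CSF was smaller in STAT5 cKO BMDMs for 8 target genes, where 2.22% of all tested genes were called so. Among the 8 were Ier3, Ccl3 and Ccl4 (interactions of -1.99, -1.47 and -1.82).

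The genes whose levels were most like those of each member over the 15 libraries were found by the Pearson correlation of log2 CPM, as a description of libraries that share mice and treatments. Nfkbia was most like Cxcl2 (r = 0.996) and Cxcl1 (r = 0.995), Tnfaip3 most like Cxcl1 (r = 0.994), and Nfkbie most like Gch1 (r = 0.994). Bcl3 was most like Junb (r = 0.994) and Rhbdf2 (r = 0.994), followed by Ptgs2 (r = 0.993). Nfkbiz was most like Zc3h12c (r = 0.992). Among the subunits, Rnf19b stood first for Nfkb1 (r = 0.989) and Relb (r = 0.986) and second for Nfkb2 (r = 0.988), after Arhgef2 (r = 0.989). Rel was most like Nfe2l2 (r = 0.986) and Malt1 (r = 0.980), and Rela most like Traf3 (r = 0.987).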

How the data were processed

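Counts of 15 libraries were used. According to the study's methods and the submitters' processing notes, the authors trimmed reads with Trimmomatic 0.33, aligned them to GRCm38 with HISAT2 2.1.0 and counted fragments per gene on the gene's strand with featureCounts 1.6.2. The authors deposited these fragment counts without normalization, beside the summed exon length (in bp) and position of each gene. The header also names libraries of another conditioned medium that are not analysed here. Symbols matched 55144 of 55385 genes.

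The low-count filter asked for more than 1 CPM in 2 or more libraries, which 13005 genes met. Counts were normalized by relative log expression and tested with the quasi-likelihood F test of edgeR 4.0.16 (R 4.3.3) in a model of 6 groups, with Benjamini-Hochberg adjustment over all tested genes and an adjusted p-value under 0.01 as the threshold. SE values of log2 fold changes were derived from F. The biological coefficient of variation was 0.0787. CPM use normalized totals.

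Alternatives were TMM, no low-count filter, filterByExpr, the likelihood ratio test, the legacy quasi-likelihood test (added after seeing the data), DESeq2 1.42.0, an adjusted p under 0.05, the libraries compared alone, thinning to the smallest total, the mouse as a block or random effect (limma 3.58.1), and the exclusion of each mouse. Without 1 STAT5 fl/fl mouse, the remaining mouse was assumed to vary like the other groups. Library titles share a number across treatments, taken as the mouse. Same-numbered libraries correlated in their deviations from group means by 0.0926 to 0.213 in STAT5 fl/fl (3 distinct values, since the deviations of 2 mice mirror each other) and 0.0548 to 0.214 in STAT5 cKO BMDMs (9 pairs). Differently numbered STAT5 cKO libraries gave -0.238 to 0.149 (18 pairs), a range that overlaps that of the same-numbered ones. No pair of replicates agreed within sampling noise. The steps were tested on simulated data.

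The 10 genes and the lists were chosen with earlier results of these data known. Named genes of a list are at most the 3 called genes per direction and comparison with the smallest adjusted p, and all 10 members are given.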

Additional observations from a re-analysis of the deposited data

Results flagged for a closer look

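The response to a treatment differed between the genotypes, by the interaction term of the edgeR model, in the following cases, all given as the log2 response in STAT5 cKO minus that in STAT5 fl/fl BMDMs. For rmGM-CSF against DMEM the differences were -0.84 for Bcl3 (adjusted p = 0.000243), -0.63 for Nfkb2 (adjusted p = 0.00038), -0.58 for Rel (adjusted p = 0.00479) and -0.50 for Relb (adjusted p = 0.00535). For 4T1 CM against DMEM the difference was 0.59 for Nfkbie (adjusted p = 0.00467). For 4T1 CM against rmGM-CSF the differences were 0.94 for Nfkbie (adjusted p = 1.68e-05), 0.92 for Bcl3 (adjusted p = 5.37e-05), 0.83 for Rel (adjusted p = 0.000288) and 0.58 for Nfkb2 (adjusted p = 0.00117). The exclusion of at least 1 mouse ended 7 of these 9 calls, and the differences of Nfkbie and Bcl3 for 4T1 CM against rmGM-CSF were the ones kept in all 15 alternatives. These comparisons share libraries with each other, so that they are not independent.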

How the results depend on the processing

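Of the 120 results (10 genes in 12 comparisons), 71 were called, and 57 of these were called in all 15 alternatives. The alternative of an adjusted p under 0.05 reads the same fit as the main result, so that it could end no call. No called value changed its sign, and 14 lost the call in at least 1 alternative. Of the 49 values not called, 9 passed the threshold in at least 1 alternative and 9 changed sign, all of them within 0.0796 of 0 on the log2 scale. Between the genotypes with DMEM, 3 genes were called by the likelihood ratio test, at an adjusted p under 0.05 and by DESeq2. With 4T1 CM, 4 genes were called under each of these, and 1 in a fit of the libraries compared alone. The interaction for 4T1 CM against DMEM had 0 calls in that fit. Leaving out 1 mouse gave 1 to 5 called genes between the genotypes with 4T1 CM, 1 to 3 with rmGM-CSF, 0 to 3 for the interaction of rmGM-CSF against DMEM, 0 to 1 for that of 4T1 CM against DMEM and 2 to 4 for that of 4T1 CM against rmGM-CSF. The causes were not tested, though these fits hold fewer samples. The replicate block, fitted to comparisons between treatments and to interactions, ended the call of Rela for 4T1 CM against DMEM in STAT5 fl/fl BMDMs (0.23, adjusted p = 0.0111), leaving 7 calls there, and changed no other call. It could not be fitted to differences between genotypes, whose mice differ, where the mouse as a random effect ended the call of Nfkb1 with rmGM-CSF (adjusted p = 0.0103) and no other. Thinning all libraries to the smallest total ended the call of Nfkb1 between the genotypes with rmGM-CSF (adjusted p = 0.016). It also ended that of Relb for the interaction of rmGM-CSF against DMEM (adjusted p = 0.0117). Both calls were lost without mouse 114, 115 or 116 as well, and the part of depth in them was not tested.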
